A study of Mus musculus with 12 samples.

Results

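The CC chemokine ligands Ccl1, Ccl2, Ccl3, Ccl4, Ccl5, Ccl6, Ccl9, Ccl22, Ccl24 and Ccl25 were followed by name through RNA sequencing of liver NK cells and type 1 innate lymphoid cells (ILC1) of mice on a lean or an obesogenic diet. These are 10 of the 24 genes named Ccl with a number among the 5545 genes analysed here; of the other 14, 8 had 0 counts in every library. The cells came from 6 female mice of the C57BL/6 strain (C57BL/6J in the study's methods), and each mouse gave 1 library of NK cells and 1 of ILC1, so that 12 libraries form 4 groups of 3. Lean mice were weaned onto the RM1 expanded diet, a standard chow, and obese mice onto the 824018 diet, named for 45% AFE fat and given with condensed milk, and both were kept on it for 12 weeks. Both populations were sorted from intrahepatic leukocytes as lineage-negative cells with NK1.1, and NK cells were CD49a- CD49b+ where ILC1 were CD49a+ CD49b-. The lineage antibodies included CD3, CD8a and Gr1 and held none against macrophages. Mice are numbered 25, 26 and 27 in each diet. A lean and an obese mouse with the same number are different animals, whereas the NK and ILC1 libraries of 1 number within a diet came from 1 animal.

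CC chemokines are small secreted proteins with a pair of adjacent cysteines, and they attract leukocytes by binding G protein-coupled receptors. Ccl3, Ccl4 and Ccl5 are made by NK cells and cytotoxic T cells and attract monocytes and T cells. Ccl1 binds CCR8, Ccl2 is the monocyte attractant that binds CCR2, Ccl6 and Ccl9 are made mainly by myeloid cells and bind CCR1, Ccl22 binds CCR4, Ccl24 binds the eosinophil receptor CCR3, and Ccl25 binds CCR9. In the liver, macrophages known as Kupffer cells and dendritic cells are a source of several of them.

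Of the 10 genes, 7 lie on mouse chromosome 11 in the GRCm38 build, and all 10 are annotated as protein-coding. Ccl5 (chr11:83525778-83530518, minus strand), Ccl9 (chr11:83572919-83578636, minus), Ccl6 (chr11:83587882-83593087, minus), Ccl3 (chr11:83647844-83649355, minus) and Ccl4 (chr11:83662584-83664683, plus) are neighbours, with Ccl2 (chr11:82035571-82037453, plus) and Ccl1 (chr11:82176657-82305690, minus) nearer to the centromere. The span of Ccl1 is that of a long non-coding transcript, and its 2 protein-coding transcripts start at 82179812. Ccl24 is on chromosome 5, and Ccl22 and Ccl25 are on chromosome 8. The coding sequences of Ccl3 and Ccl4 were identical over 66.7% of their alignment and those of Ccl6 and Ccl9 over 64.6%. The cysteine pair that gives the family its name is shown from the GENCODE vM21 coding sequence for Ccl4 and Ccl5, which were abundant, and for Ccl1, the only one that edgeR called between the cell types. The codons of the pair are in capitals, and they lie in exon 2 of each gene.
Ccl1: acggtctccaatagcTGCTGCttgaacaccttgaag
Ccl4: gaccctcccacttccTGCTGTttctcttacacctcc
Ccl5: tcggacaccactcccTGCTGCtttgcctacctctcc
Ccl4 used TGT for the second cysteine of the pair, where the other two used TGC for both.

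The libraries held 1666637 to 2826766 counts over the genes analysed here, which is part of their depth. The replicate 26 library of obese ILC1 stood apart, and edgeR results that rest on it are given with and without it. DESeq2 was run on all 12 libraries only, so its calls were not checked without that library. Replicate 26 held the highest normalized count of the 12 libraries for 828 of the 3098 genes with 30 or more counts in all (26.7%). It held 98.7% of all normalized counts of 10 hepatocyte markers, 93.4% of 6 dendritic cell markers and 87.3% of 11 Kupffer cell and macrophage markers. The same library held 96.0% of 5 endothelial and stellate cell markers and 88.9% of 7 B cell markers. Few markers of the sorted populations were in the table, and the lists were chosen with earlier results of these data known. Their values describe the libraries and do not test the sort. The 3 of 6 ILC1 markers in the table (Cxcr6, Cd200r1 and Ccr8) summed to 7150 to 27772 normalized counts in ILC1 and 69 to 728 in NK cells. Cxcr6 made up most of the ILC1 sum. The single NK marker in the table (1 of 6, Chit1) had 19 to 331 in NK cells and 0 in every ILC1 library. Other libraries differed from their group as well. Lean NK replicate 27 had 1948 genes detected, against 2836 and 2841 in the rest of its group, and was highest for 15.7% of the 3098 genes. Obese ILC1 replicate 25 had 2014 genes detected and was highest for 16.1%. Within a group each library is a separate mouse. In bulk libraries of this kind, fewer cells of a type and less RNA per cell cannot be told apart.

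**Figure D1:**
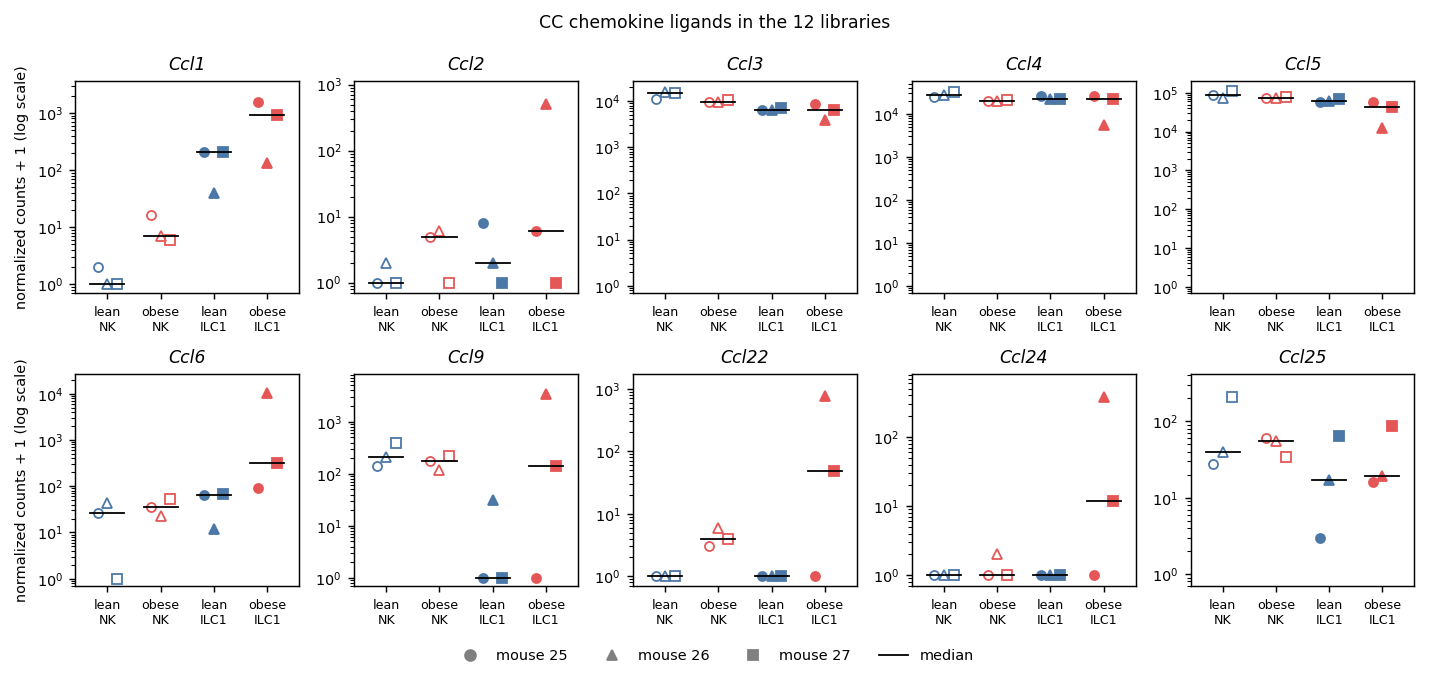
Normalized counts plus 1 (log axis) of the 10 CC chemokine ligands in each of the 12 libraries, with 1 panel per gene; open symbols are NK cells, filled symbols ILC1, blue lean, red obese, the symbol shape gives the mouse number within its diet, and the bar is the group median. Ccl3, Ccl4 and Ccl5 are high throughout, Ccl1 is at 39 or more in ILC1 and at 15 or less in NK cells, and obese ILC1 replicate 26 stands above the other 11 libraries for Ccl2, Ccl6, Ccl9, Ccl22 and Ccl24.

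Ccl5, Ccl4 and Ccl3 were the abundant ligands of both cell types, and Ccl5 and Ccl3 were lower in ILC1 than in NK cells of every mouse. On a scale of normalized counts per kilobase of annotated exon, the lean NK medians were 90669 for Ccl5, 42838 for Ccl4 and 19270 for Ccl3, and in lean ILC1 they were 64649, 34192 and 8339. In both lean groups the ranges of these levels did not overlap between the 3 genes. Ccl5 alone took 3.86 to 5.44% of the counts analysed here in NK libraries and 2.35 to 3.52% in ILC1, apart from 0.389% in obese ILC1 replicate 26. Its count ranked 1 or 2 among all genes analysed in NK cells and 3 or 4 in ILC1, but 31 in that library. Next to these, the levels per kilobase of the other 7 genes were low, with medians no higher than 387 in any group, which was the value of Ccl1 in obese ILC1. The exon length used for Ccl1, 2369 bases, includes exons of its long non-coding transcript, which lowers its level on this scale.

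Ccl5 had 87042, 73465 and 111278 normalized counts in lean NK cells (replicates 25, 26 and 27) and 71861, 71907 and 76666 in obese NK cells. In ILC1 it had 56639, 62063 and 67813 in lean mice and 59204, 12507 and 42321 in obese mice. All 6 NK libraries were thus above all 6 ILC1 libraries, with replicate 26 of obese ILC1 far below the rest. Over the genes tested, 2.65% were lower in ILC1 without overlap in the same way. The log2 fold change of Ccl5 for ILC1 against NK cells was -0.76 ± 0.30 (SE) by edgeR, with an adjusted p of 0.187, and without obese ILC1 replicate 26 it was -0.56 ± 0.11 with an adjusted p of 0.0127. Both are under the 2-fold change that a call required.

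Ccl3 had 11224, 15643 and 14761 normalized counts in lean NK cells and 9413, 9404 and 10547 in obese NK cells. Lean ILC1 had 6286, 6388 and 6980, and obese ILC1 had 8721, 3823 and 6562. Again no ILC1 library reached the lowest NK library. The difference was -0.87 ± 0.19 on the log2 scale with an edgeR adjusted p of 0.0200, which is less than 2-fold, so Ccl3 was not called. Without obese ILC1 replicate 25 it came to -1.02 (adjusted p = 0.00382) and was called, in a fit that called 1.67% of genes lower, and with the mouse as a block the adjusted p was 0.0621. In lean mice alone, Ccl3 was at -1.07 ± 0.26 with an adjusted p of 0.0645, and it was called in the same contrast without obese ILC1 replicate 26 (-1.09 ± 0.14, adjusted p = 0.00123, in a fit that called 1.19% of genes lower) or replicate 25 (-1.07, adjusted p = 0.0215, with 3.63% of genes called in either direction). In obese mice the value was -0.66 ± 0.26 (adjusted p = 0.268).

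Ccl4 did not pass the test between the cell types. It had 24959, 28273 and 32803 normalized counts in lean NK cells and 19787, 19703 and 20825 in obese NK cells. The ILC1 libraries had 25604, 22567 and 22404 in lean mice and 26075, 5512 and 22826 in obese mice. ILC1 was the higher of the pair in 3 mice and the lower in the other 3. The log2 fold change was -0.23 ± 0.30 (edgeR adjusted p = 0.828), and -0.02 ± 0.08 without obese ILC1 replicate 26.

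Ratios of the 3 genes within a library do not depend on how libraries were scaled. Ccl3 to Ccl4 was 0.450 to 0.553 in the 6 NK libraries and 0.246 to 0.334 in 5 of the ILC1 libraries, whereas obese ILC1 replicate 26 stood at 0.694. Ccl5 to Ccl3 was 9.01 to 9.72 in lean ILC1, above all other libraries, where it ran from 3.27 to 7.75. Ccl5 to Ccl4 overlapped between the cell types, at 2.60 to 3.68 in NK cells and 1.85 to 3.03 in ILC1. In lean mice Ccl3 was thus lower in ILC1 relative to both Ccl4 and Ccl5.

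**Figure D2:**
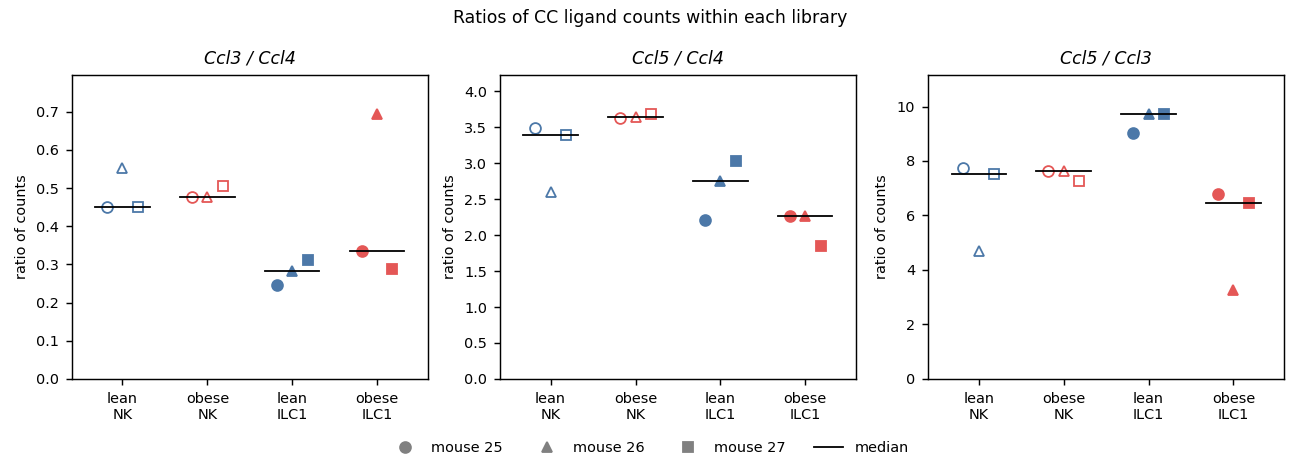
Ratio of the counts of Ccl3 to Ccl4, Ccl5 to Ccl4 and Ccl5 to Ccl3 (linear axes from 0) in each library, with symbols by cell type, diet and mouse number and the group median as a bar. The Ccl3 to Ccl4 ratio is 0.450 or more in NK cells and 0.334 or less in ILC1 except for obese ILC1 replicate 26 at 0.694.

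Ccl1 was the one ligand that edgeR called between the cell types, and it was higher in ILC1 of all 6 mice. Lean NK cells had 1, 0 and 0 normalized counts, and obese NK cells had 15, 6 and 5. Lean ILC1 had 206, 39 and 202, and obese ILC1 had 1554, 133 and 917. The medians were, from low to high, 0 in lean NK cells, 6 in obese NK cells, 202 in lean ILC1 and 917 in obese ILC1. Only the last neighbours in that order, lean and obese ILC1, overlapped, and in both of these groups replicate 26 was the lowest library. No NK library reached the lowest ILC1 library, and 3.03% of the genes tested were higher in ILC1 without overlap.

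The log2 fold change of Ccl1 for ILC1 against NK cells was 7.51 ± 0.90 (SE), with an edgeR adjusted p of 0.000591. Over the 7 ligands that passed the filter on low counts, 1 was called higher in ILC1 and 0 lower, beside 3.15% and 1.19% of the 2606 genes tested, and their median log2 fold change was -0.76 beside 0.04 over all tested genes. Leaving out obese ILC1 replicate 26 gave 7.75 ± 0.73 for Ccl1 (adjusted p = 7.79e-05). In lean mice Ccl1 was at 8.42 ± 1.39 (adjusted p = 0.00895), and since lean NK cells held a single count in all, the counts themselves give a ratio of 456 with a 95% counting interval of 81.4 to 18040. This interval covers counting error only. In obese mice it was at 6.60 ± 1.17 (adjusted p = 0.0244), and again it was the 1 member called, where 0.921% of all tested genes were called in either direction. In lean mice 2.3% were.

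The call in obese mice was less firm than that over both diets. With the mouse as a block it was lost (6.18, adjusted p = 0.128), where 0.0% of all genes were called, as it was without lean NK replicate 25 (adjusted p = 0.0515), obese NK replicate 25 (0.113), 26 (0.159) or 27 (0.195), or lean ILC1 replicate 25 (0.0553) or 27 (0.0551), at log2 fold changes of 6.33 to 7.22. The call in lean mice was lost without lean NK replicate 26 (adjusted p = 0.0586). Some T cell transcripts also differed between the cell types, although CD3+ cells were gated out. The 9 T cell markers, all in the table, summed to 993 to 2159 normalized counts in NK cells and 4821 to 17847 in ILC1. Cd3g made up most of the lean ILC1 sum, with 120 to 385 in NK cells and 2037 to 13673 in ILC1. Of the 7 tested markers, 3 were called higher in ILC1 and 0 lower, beside 3.15% and 1.19% of all tested genes. Cd28 overlapped, at 702 to 1506 in NK cells and 760 to 2356 in ILC1. In obese ILC1 replicates 25, 26 and 27 the sums were 15772, 10331 and 4821, beside 1554, 133 and 917 normalized counts of Ccl1. In lean ILC1 they were 14903, 17847 and 15623, beside 206, 39 and 202. The part of T cell transcripts in the Ccl1 difference was not tested.

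The promoter of Ccl1 is shown because it belongs to the one called ligand. It is the RefSeq sequence of the 250 bases before the start of the protein-coding transcripts, not of the long non-coding one, on GRCm38.p6 (chr11:82179813-82180062, minus strand), with the match to the NF-kB motif in capitals.
Ccl1: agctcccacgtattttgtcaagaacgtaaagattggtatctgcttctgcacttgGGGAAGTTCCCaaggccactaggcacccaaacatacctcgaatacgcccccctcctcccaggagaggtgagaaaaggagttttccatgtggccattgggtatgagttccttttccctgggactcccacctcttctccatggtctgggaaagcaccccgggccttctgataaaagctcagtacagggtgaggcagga
The motif was searched as GGGA, NNNN and CC in a row on both strands, and it matched once on each strand, at overlapping positions that begin 196 and 195 bases before the start. Of all 32817 promoters of this length, 17.6% held a match. The AP-1 motif TGANTCA (both strands, in 6.75% of promoters), the T-box motif AGGTGTGA (both strands, 1.12%) and TATAAA on the gene's strand (7.6%) had no match in this window. These are descriptions of letters and say nothing about binding. Promoters were also found for Ccl3, Ccl6, Ccl9, Ccl22 and Ccl25, whereas Ccl2, Ccl4, Ccl5 and Ccl24 had none in the table used.

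**Figure D3:**
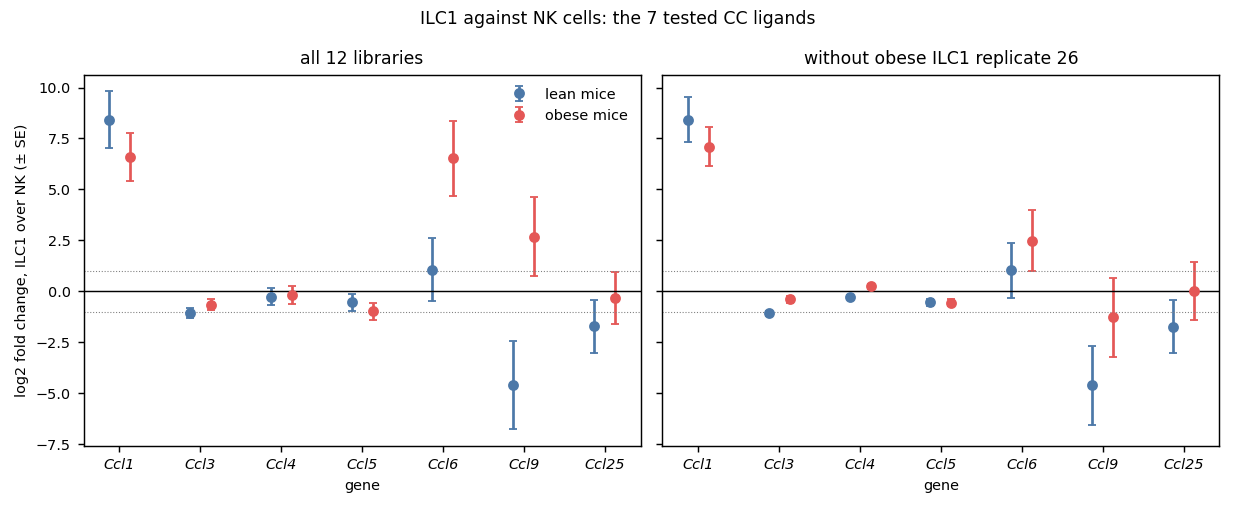
Log2 fold change of ILC1 over NK cells (± SE, edgeR) for the 7 CC ligands that could be tested, in lean (blue) and obese (red) mice, with all 12 libraries on the left and without obese ILC1 replicate 26 on the right; dotted lines mark a 2-fold change. Ccl1 is far above 0 in all 4 fits, and the obese value of Ccl6 goes from 6.52 to 2.48 and that of Ccl9 from 2.69 to -1.28 when the library is left out.

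Ccl6 and Ccl9 owed most of their counts to a single library. Ccl6 had 26, 42 and 0 normalized counts in lean NK cells, 34, 22 and 51 in obese NK cells, 65, 11 and 67 in lean ILC1, and 91, 10334 and 319 in obese ILC1. Obese ILC1 replicate 26 thus held 93.4% of the sum over 12 libraries, but the other 2 obese ILC1 libraries were also above every library of the other 3 groups. The same held between obese and lean ILC1 for 7.29% of the genes tested, and between obese ILC1 and obese NK cells for 9.4%.

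The fitted log2 fold change of Ccl6 for ILC1 against NK cells was 3.79 ± 1.16 (edgeR adjusted p = 0.0887), and 1.76 ± 1.01 without that library (adjusted p = 0.374). It was called without obese ILC1 replicate 25 (4.08, adjusted p = 0.0337), where 4.06% of all genes were called higher, and DESeq2 called it with all libraries (3.85, adjusted p = 0.00694), where it called 5.02% of all genes higher. In single diets DESeq2 called 5.26% of genes in lean and 5.66% in obese mice, with Ccl3 (adjusted p = 0.0112) among the first and Ccl6 (adjusted p = 0.000842) among the second. In obese mice alone it was at 6.52 ± 1.85 (adjusted p = 0.132) and without obese ILC1 replicate 25 at 7.10 (adjusted p = 0.0491), which is a call, as 2.35% of all genes were.

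The estimates for Ccl9 had opposite signs in lean and obese mice. In lean mice NK cells had 143, 213 and 390 normalized counts and ILC1 had 0, 30 and 0, so that the groups did not overlap, as was the case for 11.4% of the genes tested. Obese NK cells had 173, 117 and 218, and obese ILC1 had 0, 3407 and 141. Apart from replicate 26, which held 70.5% of all Ccl9 counts, ILC1 was lower than NK cells in each of the other 5 mice. All lean ILC1 counts of Ccl9 lay in replicate 26, and without it lean NK cells were at least 161-fold higher by the floor of 3 counts over the other 2 libraries. The log2 fold change was -4.60 ± 2.14 in lean mice (edgeR adjusted p = 0.395; -11.07 with an adjusted p of 0.297 without that library, against a group at 0) and 2.69 ± 1.92 in obese mice (adjusted p = 0.671), and without obese ILC1 replicate 26 the latter became -1.28 ± 1.95 (adjusted p = 0.831). The difference between these effects was 7.29 ± 2.87 on the log2 scale and did not pass the test (adjusted p = 0.793). It was 13.74 without lean ILC1 replicate 26.

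Ccl2, Ccl22 and Ccl24 did not pass the filter on low counts, and nearly all their counts were in that same library. Ccl24 had 0, 375 and 11 normalized counts in obese ILC1, 0, 1 and 0 in obese NK cells and 0 in all 6 lean libraries, so that 96.9% lay in replicate 26. Ccl2 had 5, 514 and 0 in obese ILC1, against 7, 1 and 0 in lean ILC1, 4, 5 and 0 in obese NK cells and 0, 1 and 0 in lean NK cells, which puts 95.7% there. Ccl22 had 0, 763 and 48 in obese ILC1 (92.9% in replicate 26), 2, 5 and 3 in obese NK cells and 0 in the lean libraries. In both Ccl22 and Ccl24, replicate 27 of obese ILC1 was the second highest library.

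Exact permutation tests, two-sided, could not reach 0.05 for these genes. For ILC1 against NK cells, swapping within mice, the exact p was 0.25 for Ccl2, 0.5 for Ccl22 and 0.5 for Ccl24. Only 3, 3 and 2 of the 6 mice differed between their libraries, so that the smallest p allowed was 0.25, 0.25 and 0.5 in this exact test. For obese against lean ILC1 the exact p was 0.7, 0.4 and 0.4, where the smallest allowed was 0.1, 0.4 and 0.4. By counts alone, Ccl22 was at least 177-fold higher in obese than in lean ILC1 and Ccl24 at least 80.9-fold, taking a floor of 3 counts over the lean group. Without obese replicate 26 the bounds were 30.03-fold and 7.07-fold, from 68 and 16 counts, all of them in replicate 27, since replicate 25 was at 0. DESeq2, run with replicate 26 included and not without it, called Ccl22 in obese against lean ILC1 (adjusted p = 0.00658), as well as Ccl6 (0.00452) and Ccl9 (0.0345), where edgeR called none. It called 2.67% of all genes in that contrast.

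Marker genes of other cell types were high in the same library. The 11 Kupffer cell and macrophage markers, all of them in the table, summed to 167 to 1159 normalized counts in lean NK cells, 233 to 326 in obese NK cells, 178 to 466 in lean ILC1, and 1950, 51687 and 2120 in obese ILC1 replicates 25, 26 and 27. None of the 11 was at 0 in replicate 26, where Clec4f had 10176 and Cd5l 7077, while 7 were at 0 in replicate 25 and 2 in replicate 27. The 6 dendritic cell markers summed to 5205 in replicate 26 and to 78 at most in the other 11 libraries. Lists of other lineages were high there too. The sums were 302253 for hepatocyte, 20057 for B cell and 15100 for endothelial and stellate cell markers, against 1241, 454 and 234 at most elsewhere. The part of these cells in the values of Ccl2, Ccl6, Ccl9, Ccl22 and Ccl24 was not tested. The remaining members did not share this pattern: the library held 4.32% of Ccl1, 3.48% of Ccl3, 2.89% of Ccl25, 2.03% of Ccl4 and 1.58% of Ccl5.

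**Figure D4:**
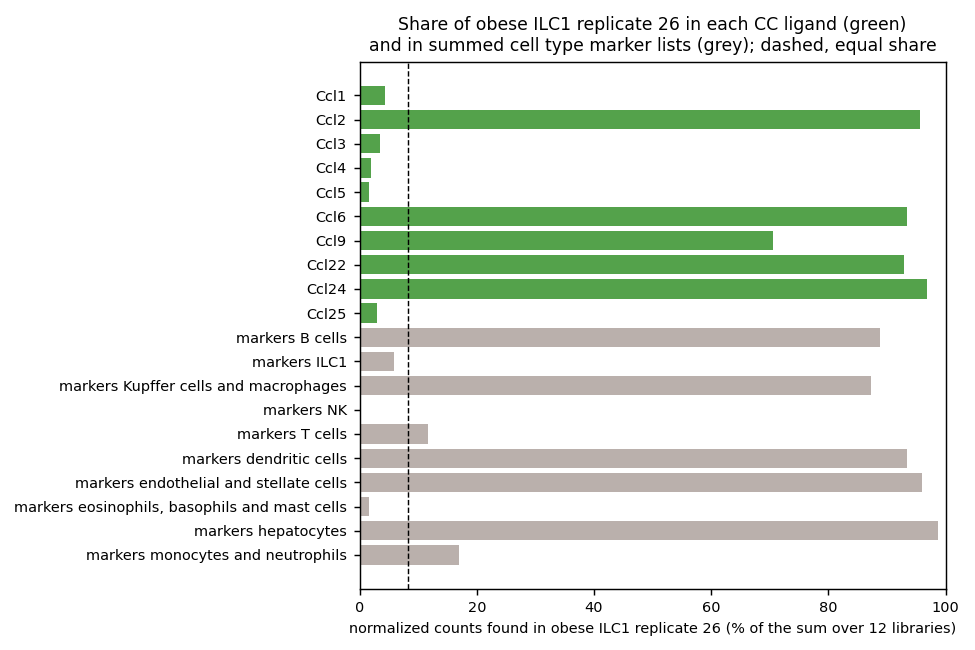
Share of the normalized counts of each CC ligand (green) and of each summed list of cell type markers (grey) that was found in obese ILC1 replicate 26, in percent of the sum over 12 libraries; the dashed line is an equal share. Ccl2, Ccl6, Ccl9, Ccl22 and Ccl24 lie at 70.5 to 96.9%, and the other 5 ligands lie at 4.32% or less. High lists are those of hepatocytes (98.7%), endothelial and stellate cells (96.0%), dendritic cells (93.4%), B cells (88.9%) and Kupffer cells (87.3%). The remaining lists lie at 17.0% or less.

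Ccl25, a ligand better known from thymus and small intestine, was low in all groups. It had 27, 39 and 208 normalized counts in lean NK cells, 59, 55 and 33 in obese NK cells, 2, 16 and 64 in lean ILC1, and 15, 18 and 86 in obese ILC1. The groups overlapped, and ILC1 was lower than NK cells in 5 of 6 mice. The log2 fold change was -1.03 ± 0.90 (edgeR adjusted p = 0.666). In both lean groups and in obese ILC1, replicate 27 was the highest.

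The comparison of obese with lean mice asks whether the ligands changed with the diet within a cell type. No ligand was called by edgeR in NK cells or ILC1, nor was any other of the 2606 genes (0.0% in each). The paper, using SARTools at the same thresholds, did report genes that differed between obese and lean NK cells. Cd200r1 and Cd101 were among those it found higher in obese mice. At an unadjusted p under 0.05, edgeR had 31 genes in NK cells and 277 in ILC1, and DESeq2 called 9 (0.337%) and 75. In NK cells, Ccl1 was higher in all 3 obese mice than in all 3 lean mice, at 35 counts against 1, a ratio of 26.2 with a 95% counting interval of 4.41 to 1065. Its log2 fold change was 4.36 ± 1.31 with an unadjusted p of 0.00676 and an edgeR adjusted p of 1. Ccl22 was also without overlap, at 15 counts in obese NK cells against 0, which is at least 3.75-fold higher by the floor of 3 counts, with an exact permutation p of 0.1. Of the genes tested, 9.9% were higher in obese NK cells without overlap. The 3 ILC1 markers in the table summed to 244 to 728 normalized counts in obese NK cells and 69 to 136 in lean NK cells. The 10 hepatocyte markers summed to 190 to 792 in obese and 38 to 221 in lean NK cells. The Kupffer cell and macrophage list overlapped, at 233 to 326 in obese and 167 to 1159 in lean NK cells, and its genes differed in pattern. Cd5l (10 to 19 in obese NK cells) and Csf1r (7 to 17) were at 0 in every lean NK library. Cd163 had 67 to 86 in obese and 74 to 753 in lean NK cells, and Cd68 had 82 to 105 and 64 to 405. The median log2 fold change of the 10 tested genes of that list was 3.03, with 0 called by edgeR and 2 by DESeq2. The part of these cells in the Ccl1 and Ccl22 values was not tested.

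All obese NK libraries were below all lean NK libraries for Ccl3 and Ccl4, as were 6.33% of the genes tested. The log2 fold changes were -0.47 ± 0.26 for Ccl3 and -0.47 ± 0.42 for Ccl4, with adjusted p of 1 by edgeR. Without obese ILC1 replicate 26, a library outside this contrast that bears on the shared spread and on which genes pass the filter, the errors fell to 0.14 and 0.11, and the adjusted p were 1 and 0.479. Ccl5 overlapped between the diets, at -0.26 ± 0.42.

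In ILC1, Ccl1 was at 2.53 ± 0.96 for obese against lean mice (edgeR adjusted p = 0.332), and at 3.06 ± 0.80 without replicate 26 of the obese group (adjusted p = 0.305). Obese replicates 25 and 27 were above all lean ILC1 libraries, while replicate 26 was below 2 of them. For Ccl3, Ccl4 and Ccl5 the values were -0.06 ± 0.26, -0.39 ± 0.42 and -0.72 ± 0.42, and without that library they were 0.22 ± 0.16, 0.06 ± 0.12 and -0.29 ± 0.17, so that the first 2 changed direction. Ccl6 was at 6.14 ± 1.82 (adjusted p = 0.281) and Ccl9 at 6.78 ± 2.35 (adjusted p = 0.307), and without the library at 2.12 ± 1.48 and 2.82 ± 1.91 (adjusted p = 0.666 and 0.660). Without lean ILC1 replicate 26, the only lean ILC1 library with Ccl9 counts, Ccl9 was at 13.22 against a group at 0. No ligand passed the test of whether the difference between ILC1 and NK cells varied with the diet, and 0 of 2606 genes did (155 at an unadjusted p under 0.05, and 15 calls by DESeq2, or 0.432%).

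Receptors for these ligands were read from the same libraries. Of 23 chemokine receptor genes, 11 could be tested. Of these, 3 were called higher in ILC1 than in NK cells (Ccr8, Cxcr3 and Cxcr6) and 0 lower, beside 3.15% and 1.19% of all tested genes. Ccr8 and Cxcr6 were also on the ILC1 marker list above, so their calls are not separate from it. The median log2 fold change of the 11 genes was 2.30, and 0.40 without obese ILC1 replicate 26. Ccr8, the receptor of Ccl1, had 1, 0 and 0 normalized counts in lean NK cells and 0, 0 and 4 in obese NK cells, against 144, 136 and 251 in lean ILC1 and 194, 18 and 300 in obese ILC1. Both the ligand and its receptor were thus higher in ILC1 without overlap, as were 3.03% of the genes tested. In both, replicate 26 of obese ILC1 was lowest in its group. The log2 fold change of Ccr8 was 7.69 ± 1.30 (edgeR adjusted p = 0.00560).

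Ccr2, the receptor of Ccl2, had 5507 to 9698 normalized counts in NK cells and 3559 to 9928 in ILC1, at a log2 fold change of -0.62 ± 0.17 (edgeR adjusted p = 0.0551), and at -0.79 ± 0.12 without obese ILC1 replicate 26 (adjusted p = 0.00236), which is under 2-fold. Ccrl2, an atypical receptor, was at 0.87 ± 0.33 (adjusted p = 0.167), and at 0.40 ± 0.20 without that library, which held 3800 normalized counts against 1150 at most elsewhere. Ccr9 (4.02 ± 1.72) and Ccr3 (4.94 ± 1.92), the receptors of Ccl25 and Ccl24, were not called either, with 461 and 160 normalized counts there as their highest. Without it they were at 2.35 ± 1.59 and 3.31 ± 1.79 (edgeR adjusted p = 0.466 and 0.338). Ccr1, the receptor of Ccl6 and Ccl9, and the scavenger receptor Ackr2 were not tested for low counts and had 1256 and 256 in that library against 14 and 16 at most in the others. Ackr4 reached 9 at most, and Ccr4, the receptor of Ccl22, had 1 count in all 12 libraries.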

How the data were processed

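RNA from sorted liver NK cells and ILC1 of 3 lean and 3 obese mice was sequenced from 2 ng per library. Per the submitters' processing notes, bcl2fastq 2.19, Trimmomatic 0.36.5, STAR 2.5.2b, featureCounts 1.6.0.2 and the mm10 build were used; the annotation is not given in the sources used here. The authors deposited 1 table of read counts per gene, unnormalized, and of a score, the counts divided by a factor per library and rounded, called normalized counts here. The 5545 complete rows, alphabetical up to Cyp26b1, were analysed, and 1 incomplete row was left out. Library totals cover these rows only, and adjusted p-values are over them and not the transcriptome. Columns were matched to libraries by name.

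Counts were fitted with edgeR 4.0.16 in R 4.3.3 (TMM, filterByExpr, glmQLFit, glmQLFTest, 1 model of 4 groups), with Benjamini-Hochberg adjustment over 2606 genes; a call needed a 2-fold change and an adjusted p below 0.05, as in the study's SARTools analysis. ILC1 against NK is the mean over diets. SE is the log2 fold change over the root of F. Members failing the filter had exact permutation tests on normalized counts. For likeness, log2 CPM was computed with prior count 2. Positions and coding sequence came from GENCODE vM21 by symbol, and exon lengths from the union of annotated exons. The code was tested on simulated data. No libraries were identical. A few items are not reported here. All 10 members are reported, and other CC ligands where a library had 10 or more counts; members and lists were chosen with earlier results of these data known. Alternatives were DESeq2 1.42.0, other scalings, no filter, the compared libraries alone, a mouse block, no fold threshold and each library left out. The labels pair NK cells and ILC1 by mouse; their deviations from group means correlated at -0.119 to 0.217.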

Additional observations from a re-analysis of the deposited data

How the results depend on the processing

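Counts of called ligands moved in these settings. DESeq2 called 2 higher in ILC1 (Ccl1 and Ccl6), 2 in lean mice, 2 in obese mice and 3 in obese against lean ILC1, in place of 1, 1, 1 and 0. The compared libraries alone gave 2 in lean and 0 in obese mice, beside 3.55% and 0% of all genes tested. Without the fold threshold 1 was lower (Ccl3), beside 2.23%. With the mouse as replicate block, the pairing by animal, the call in obese mice was lost (0, from 1), and a block without both libraries of obese mouse 26, chosen after seeing the data, gave 2 in lean and 0 in obese mice, beside 1.54% and 0.3%; the block changed no other call. Leaving out 1 library at a time gave 1 to 2 higher, 0 to 1 lower, 0 to 2 in lean mice and 0 to 2 in obese mice, where 1.44 to 4.06%, 0.788 to 1.67%, 1.04 to 3.63% and 0.179 to 2.35% of all genes were called. Directions turned for values that were not called. In obese ILC1 against NK cells Ccl9 was -0.66 with the block and -4.02 with the block and without mouse 26, where Ccl4 was 0.21, and with 1 library left out Ccl25 ran from -1.67 to 0.058, Ccl4 from -0.54 to 0.24 and Ccl9 from -1.28 to 3.27. The Ccl4 interaction was -0.19 with the block and -0.28 to 0.54 with 1 library left out, and that of Ccl25 -0.046 to 2.96. For obese against lean, left-out libraries gave -1.28 to 0.59 for Ccl25 in NK cells, and in ILC1 -0.80 to 2.11 for Ccl25, -0.37 to 0.22 for Ccl3, -0.76 to 0.058 for Ccl4 and an exact p of 0.2 to 1 for Ccl2. The cause was not tested. Depth limits the 3 ligands under the filter and any fold against lean NK cells, which held 1 count of Ccl1.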

Other observations

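Besides the 10 ligands described above, 14 other CC ligand genes were in the table, of which 8 had 0 counts in every library. Ccl27a, the only one that could be tested, had 0 to 32 normalized counts and a log2 fold change of -0.92 ± 0.95 for ILC1 against NK cells (edgeR adjusted p = 0.743). Ccl7, a monocyte attractant, had 112 normalized counts in obese ILC1 replicate 26 and 4 at most elsewhere, and Ccl17, the dendritic cell ligand of CCR4, had 54 there and 6 at most elsewhere. Ccl28 had 19 in lean NK replicate 26 and 3 at most elsewhere. Of 14 chemokines of the other classes, 4 could be tested and 0 were called. Cxcl9, which is induced by interferon, had 663 in obese ILC1 replicate 26 and 47 at most elsewhere, and Cxcl16, the ligand of Cxcr6, had 1430 there and 27 at most elsewhere. Csf2, which encodes GM-CSF, was called higher in ILC1, at 2.92 ± 0.71 on the log2 scale (edgeR adjusted p = 0.0364), with 57 to 71 normalized counts in lean ILC1, 18 to 267 in obese ILC1 and 8 to 18 in NK cells.

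The genes whose log2 CPM followed a ligand most closely over the 12 libraries were Cd101 (Pearson r = 0.941), Cd200r1 (0.940) and Aprt (0.915) for Ccl1, Cab39 (0.953) for Ccl3, Ctsw (0.931) for Ccl4 and Cst7 (0.969) for Ccl5. For Ccl6 they were Cfp (0.950) and Cd302 (0.929), and for Ccl9 Aldh2 (0.973) and Bank1 (0.969). These values are descriptions over libraries that share 4 groups, 6 mice and 1 library that stands apart. Ctsw and Cst7 encode a cathepsin and a cathepsin inhibitor of cytotoxic lymphocytes, and Cfp encodes properdin of myeloid cells.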
